A study of Mus musculus with 12 samples.

Results

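Tau suppression in transgenic cortex was described from 6 of the 12 arrays in the series, which are the 3 Tg + Dox arrays and the 3 Tg + Veh arrays that passed the authors' quality control. Tg mice are rTg4510 mice on an FVB/NJ background. They carry a tetO-driven human MAPT transgene with the P301L mutation and a Camk2a-tTA driver, so that human tau is made mainly in excitatory neurons of the forebrain. Tg + Veh mice received normal feed, and Tg + Dox mice received feed with 200 ppm doxycycline for 35 days, beginning at an age of 3.5 months. Cortex RNA of each sample was hybridized to 1 Mouse Clariom D array, and signals were deposited as log2 values after robust multi-array averaging (RMA). Non mice, labelled wild type FVB/NJ, were measured on the same feeds (3 Non + Veh and 2 Non + Dox arrays), so that the feed itself could be set beside tau suppression.

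Doxycycline binds the tetracycline transactivator and keeps it off its operator, so transcription of the tau transgene is reduced while tau protein already made can remain. In rTg4510 forebrain, neurons fill with aggregated tau and are then lost, and microglia and astrocytes around them take on a reactive state. Microglia in that state make complement, lysosomal proteases and lipid-handling proteins, astrocytes make intermediate filaments, and oligodendrocytes insulate the axons of the affected neurons.

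The labels leave several limits on these groups. Tau expression falls on doxycycline in this line but is not abolished, and the mouse Mapt row of the array does not read the human transgene. The Mapt row stood at 10.02, 9.88 and 9.84 on Tg + Veh 1 to 3 and at 9.77, 9.85 and 9.96 on Tg + Dox 1 to 3, a difference of −0.05 with a 95% interval of −0.19 to 0.09. Thus the arrays do not show how far the transgene was suppressed. Sex was not balanced, with 2 male and 1 female Tg + Veh arrays, 1 male and 2 female Tg + Dox arrays, 1 male and 2 female Non + Veh arrays and 2 male Non + Dox arrays. The sources do not state how many mice gave the RNA of each array, so p-values measure the spread between these samples. Tissue holds many cell types, and fewer cells of a type cannot be told apart from less RNA per cell.

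The arrays followed the tau label but not the tTA label throughout. Fgf14, which the tau transgene disrupts, separated the genotypes, with 10.85 to 11.34 in Tg and 12.01 to 12.29 in Non mice. Esyt2, a gene at the insertion site of the tTA transgene, ran from 9.45 to 9.74 in Tg mice but was also at 9.60 on Non + Veh 3 and 9.61 on Non + Dox 2, against 10.86, 10.90 and 11.23 on the other Non arrays. Ptprn2 and Wdr60 at the same site split the Non arrays in the same way. The 6 Tg arrays are not touched by this, but the spread in the fit and the feed difference in Non mice are. Counts of called rows, and the feed differences of the called rows in Non mice, are therefore also given without these 2 Non arrays. Gene lists and other groups of rows are given with all Non arrays.

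In all, 12745 rows of the array with 1 gene symbol had a log2 value above 6.76 on at least 1 of the 11 arrays used, and limma was fitted once to all of them with a mean for each of the 4 groups. A row above 6.76 only on Tg + Veh arrays is likely to have a lower mean in Tg + Dox through this filter itself. Medians of lists and counts of lower means hold such rows, so they describe the lists and do not test them. A row was called at a Benjamini-Hochberg adjusted p under 0.05. Tg + Dox differed from Tg + Veh in 87 rows (0.683% of those tested), of which 77 (0.604%) fell and 10 (0.0785%) rose on doxycycline. The falls ran from 1.17-fold to 3.46-fold with a median of 1.46-fold, and the rises from 1.29-fold to 1.98-fold with a median of 1.41-fold. Among all rows, 2054 (16.1%) had an unadjusted p under 0.05, and the arrays of the 2 Tg groups did not overlap in 2165 rows (17%), 1493 lower (11.7%) and 672 higher (5.27%). An exact permutation test of 3 against 3 arrays cannot give a p below 0.1, so single genes rest on the fit across all rows.

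These calls were sensitive to which arrays gave the estimate of spread. A fit to the 6 Tg arrays alone called 0 rows, although 1669 rows had an unadjusted p under 0.05. With any 1 array left out the count ran from 3 (without Tg + Dox 1) to 158 (without Tg + Dox 3). It was 4 without Tg + Veh 1, 5 without Tg + Veh 2, 8, 10 and 11 without Non + Veh 1, 2 and 3, and 26 without Tg + Dox 2. It was 51 without either Non + Dox array, where the lone array left adds nothing to the spread, and 73 without Tg + Veh 3. Without both Non + Veh 3 and Non + Dox 2 it was 3, and Selenop, Abhd3 and Elovl7 were called. The direction of all 87 differences was kept when Tg + Veh 4, the array that failed quality control, was put back, but none of the 87 then passed. With sex as a term 25 rows were called, 24 lower and 1 higher. Tg + Dox 3, a female array, was the highest Tg + Dox array in 38 of the 77 falls and the lowest in 9 of the 10 rises.

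**Figure D1:**
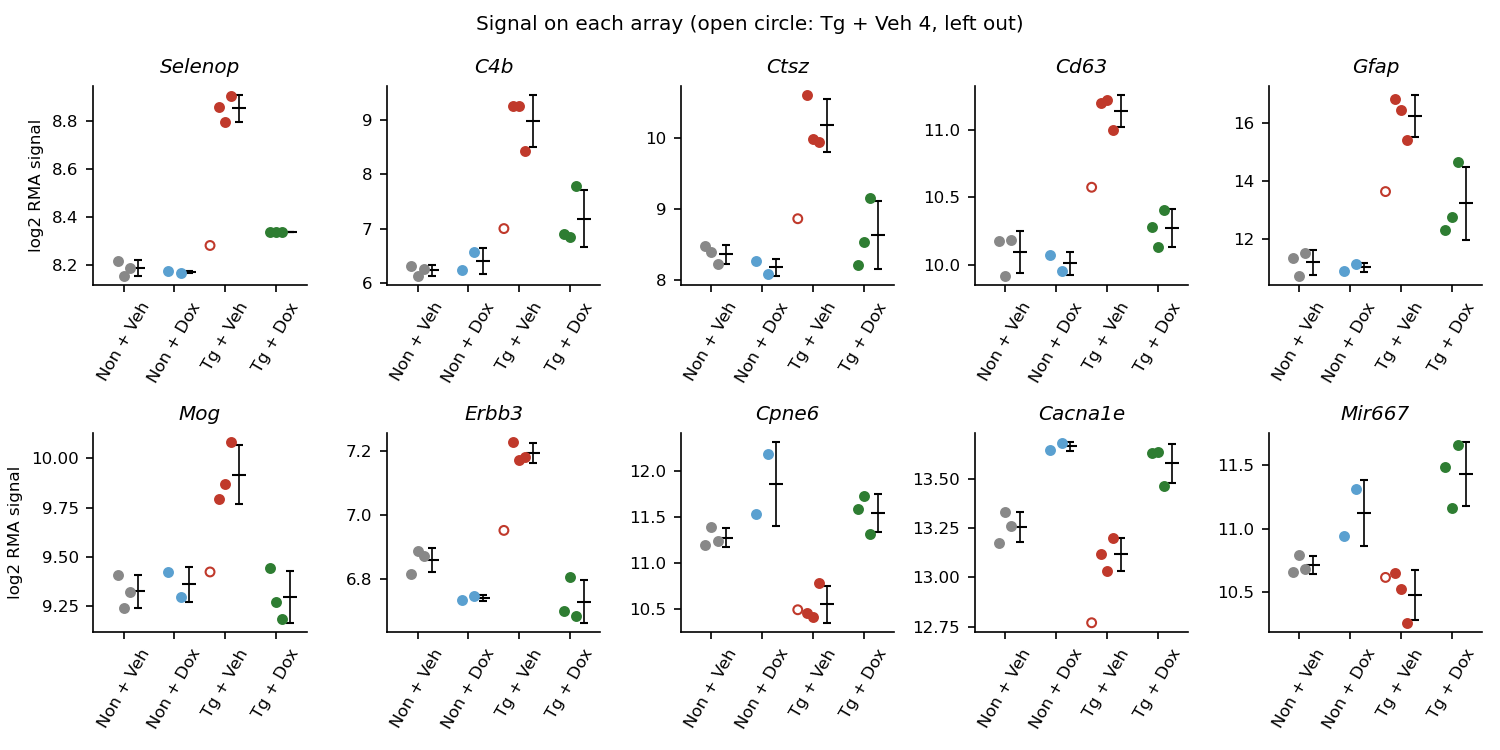
Log2 RMA signal of 10 named genes on each array (y axis), by group (x axis). Filled points are arrays used, black bars are the mean and SD, and the open circle is Tg + Veh 4, which was left out; Selenop was at 8.34 on all 3 Tg + Dox arrays and at 8.80 to 8.91 on the 3 Tg + Veh arrays.

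Selenop had the smallest adjusted p of all rows. It encodes selenoprotein P, which carries selenium to other cells. Its signal was 8.86, 8.80 and 8.91 on Tg + Veh 1 to 3 and 8.34 on each of the 3 Tg + Dox arrays. All Tg + Dox arrays lay below all Tg + Veh arrays and just above the Non + Veh arrays, which ran from 8.15 to 8.22. Selenop fell by 0.52 on the log2 scale (standard error 0.04, limma adjusted p = 0.00464), and it was the 1 gene called in all 11 fits that left out an array. The 3 Tg + Dox values were equal to the last deposited digit, as they were in 359 of the rows tested. Tg + Veh 4 was at 8.28, on the side of the Tg + Dox arrays.

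The complement genes held the largest fall among called rows. Complement component C4 is cleaved on surfaces that C1q has marked and tags them for uptake. C4b was at 9.26, 9.25 and 8.43 on Tg + Veh 1 to 3 and at 6.91, 6.86 and 7.79 on Tg + Dox 1 to 3. The groups did not overlap, and Tg + Dox 3 stayed closest to the Tg + Veh arrays. C4b fell by 1.79 (standard error 0.29, adjusted p = 0.0338). The array left out, Tg + Veh 4, lay inside the Tg + Dox range. C4a, a near copy of C4b whose probes may share its transcripts, fell by 0.79 (adjusted p = 0.0350). All 9 measured genes of the 16 listed for complement had a lower mean in Tg + Dox (56.8% of all rows), with a median difference of −0.92, against −0.02 over all rows. Of the 9, 2 were called, as 0.604% of all rows were called lower. C3ar1, C4a and Itgb2 were above 6.76 only on Tg + Veh arrays, so the filter favoured a lower mean for them.

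C1q starts the classical pathway, and its 3 chains are made in brain mostly by microglia. C1qb was at 11.36, 10.56 and 10.66 on the Tg + Veh arrays and at 8.80, 9.08 and 9.96 on the Tg + Dox arrays, a difference of −1.58 (adjusted p = 0.0542). C1qa differed by −1.14 and C1qc by −0.92 (both adjusted p = 0.0615). C3ar1, the receptor for the C3a fragment, differed by −1.59 (adjusted p = 0.0600). None of these passed with 11 arrays. All were lower without overlap between the groups, as were 11.7% of all rows. Without Tg + Dox 3, the fit with the most calls (110 of 12745 rows lower), 5 of the 9 complement genes were called lower. With all 12 arrays none was.

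Microglia that gather at damaged neurons switch on a set of genes that depends in part on the lipid receptor Trem2. Of 26 genes listed for this state, 20 were measured and 19 had a lower mean in Tg + Dox (56.8% of all rows). The median difference was −0.82 in Tg and −0.01 in Non mice. Clec7a, Trem2 and Ccl6 were above 6.76 only on Tg + Veh arrays, and Cst7 on Tg + Veh 1 alone, so the filter favoured a lower mean for them. Cd9, Cd63, Ctsl, Ctsz and Apoe were called, all lower, as were 0.604% of all rows. Cd9 and Cd63 encode tetraspanins of the cell surface and of endosomes. Cd63 was at 11.19 and 11.22 on Tg + Veh 1 and 2, slightly lower on Tg + Veh 3, and at 10.28, 10.13 and 10.41 on the Tg + Dox arrays. It fell by 0.86 (standard error 0.10, adjusted p = 0.0184), to a mean just above the Non + Veh arrays at 9.92 to 10.19, and was called in 8 of the 11 fits. Cd9 fell by 0.98 (standard error 0.13, adjusted p = 0.0287). Timp2, a secreted protease inhibitor, was the 1 listed gene with a higher mean, at 0.15 (adjusted p = 0.546).

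Apoe, the main lipid carrier of brain, was at 13.69, 13.38 and 13.34 on the Tg + Veh arrays and at 12.91, 12.94 and 12.92 on the Tg + Dox arrays. It fell by 0.54 (adjusted p = 0.0490) and lost its call with any 1 array left out. Lyz2, Ctss and Trem2 were not called with 11 arrays, at differences of −2.11, −1.82 and −0.78 and adjusted p-values of 0.0539, 0.0539 and 0.0596. Lyz2, a lysozyme, was at 9.93, 8.78 and 8.39 on the Tg + Veh arrays and at 6.53, 6.84 and 7.42 on the Tg + Dox arrays. All 3 of these genes were called lower without Tg + Dox 3, the fit with the most calls. In that fit 9 of the 20 genes passed, and 110 of 12745 rows were called lower. With all 12 arrays 0 of the 20 passed.

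Genes of resting microglia differed less. All 10 measured genes of the 16 listed had a lower mean in Tg + Dox, with a median of −0.23. Tgfbr1, a receptor chain for TGF-beta that microglia need to keep their identity, was at 9.61, 9.59 and 9.41 on the Tg + Veh arrays and at 8.96, 8.75 and 9.06 on the Tg + Dox arrays. It fell by 0.61 (adjusted p = 0.032), and was the single gene of the list called. Csf1r, the receptor for the growth factor on which microglia depend, differed by −0.84 (adjusted p = 0.159), and Cx3cr1, the receptor for the neuronal chemokine fractalkine, by −0.69 (adjusted p = 0.176). Siglech, Gpr34 and Selplg differed by −0.18, −0.17 and −0.04. Genes of lymphocytes, blood and dividing cells gave no row above the signal minimum, and Mrc1, the 1 measured gene of 11 listed for perivascular macrophages, differed by −0.00.

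The lists of lysosomal proteins share genes with the microglial list, so Ctsz, Ctsl and Cd63 are calls already counted. Of 16 cathepsins and inhibitors listed, 13 were measured, 12 had a lower mean in Tg + Dox (56.8% of all rows), and the median was −0.64. Cst7 and Ctse were above 6.76 only on Tg + Veh arrays. Ctsz, a carboxypeptidase of the cathepsin family, was at 10.60, 9.98 and 9.94 on the Tg + Veh arrays and at 8.21, 8.54 and 9.15 on the Tg + Dox arrays. It fell by 1.54 (standard error 0.24, adjusted p = 0.032), from well above the Non + Veh arrays at 8.22 to 8.48 to a mean just above them. Ctsl fell by 0.65 (adjusted p = 0.0450), and Cst3, which encodes the secreted inhibitor cystatin C, by 0.63 (adjusted p = 0.0287). Without Tg + Dox 3, when 110 of 12745 rows were called lower, so were 7 of the 13. With all 12 arrays none of the 13 was called. Of 24 measured genes of other lysosomal proteins, 20 were lower, with a median of −0.30, and Cd63 and Lamp2 were called. Gusb and Npc2 were above 6.76 only on Tg + Veh arrays. Lamp2, a main protein of the lysosomal membrane, fell by 0.50 (adjusted p = 0.032).

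The lists of Fc receptors, Toll-like receptors and antigen presentation held no called gene, and Tgfbr1 was the 1 called of 12 measured in the cytokine list. All 7 measured Fc receptor and signalling genes had lower means (median −0.51), as did all 6 measured Toll-like receptor genes (median −0.61). Of the former, Fcgr1, Fcgr2b and Inpp5d were above 6.76 only on Tg + Veh arrays, as were Ccl3 of the cytokine list and H2-K1 of antigen presentation. Lilrb4a, an inhibitory receptor, differed most among the Fc receptor and signalling genes, by −1.52 (adjusted p = 0.0865). Ly86, a partner of the receptor Cd180, differed most among the Toll-like receptor genes, by −1.53 (adjusted p = 0.0693). Of 27 genes listed for antigen presentation and interferon 6 were measured, and B2m, the light chain of class I molecules, differed most, by −1.02 (adjusted p = 0.103). Mpeg1, a pore-forming protein of phagocytes, and Plek, a signalling protein of blood-derived cells, were in no list but fell by 1.34 and 1.08 (adjusted p = 0.0484 and 0.0454).

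Astrocytes were read by 2 lists. In the list of reactive genes, 7 of 17 were measured, and the median was −1.18. All 7 had lower means with no overlap between the Tg groups, as had 11.7% of all rows. Of the 7, Cd44 was above 6.76 only on Tg + Veh arrays. Gfap, the intermediate filament that marks reactive astrocytes, was at 16.80, 16.45 and 15.41 on the Tg + Veh arrays, at 12.31, 12.76 and 14.64 on the Tg + Dox arrays and at 10.74 to 11.55 on the Non + Veh arrays. Its difference of −2.98 (standard error 0.58) was 7.90-fold, yet its adjusted p was 0.0596, since the Tg + Dox arrays had an SD of 1.24. Gfap was called without Tg + Dox 3, the fit with the most calls, but not with all 12 arrays. Slc14a1, a urea channel, fell by 1.36 (adjusted p = 0.032), and Osmr, the receptor for oncostatin M, by 1.25 (adjusted p = 0.0459).

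In the list of general astrocyte markers, all 12 measured of 16 had lower means, with a median of −0.28, and S100b was the 1 called. S100b, a calcium-binding protein, was at 11.28, 11.19 and 11.40 on the Tg + Veh arrays and at 10.65, 10.56 and 10.70 on the Tg + Dox arrays. It fell by 0.65 (adjusted p = 0.032), to a mean in the Non + Veh range of 10.46 to 10.77. The glutamate transporters Slc1a2 and Slc1a3 differed by −0.18 and −0.13 and were not called. Outside this list, Mlc1, a membrane protein of astrocyte end feet, fell by 0.66 (adjusted p = 0.0287), and Abca1, which loads lipid onto apolipoprotein E, by 0.95 (adjusted p = 0.0406). Gatm, which makes the creatine precursor, fell by 0.55 (adjusted p = 0.0176) and was called in 9 of the 11 fits.

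**Figure D2:**
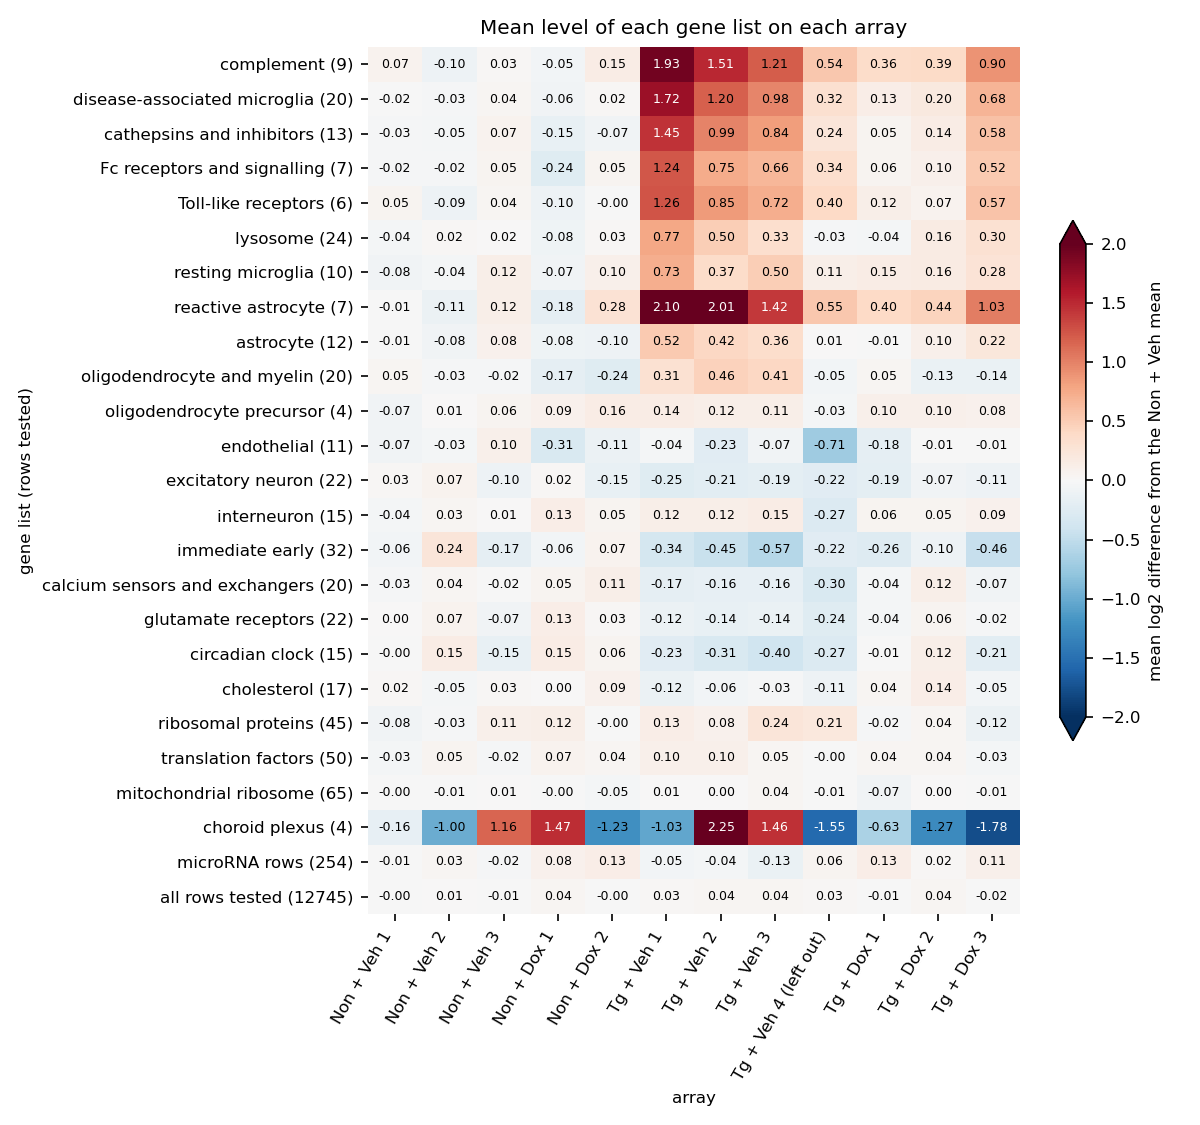
Mean log2 level of the tested rows of each gene list on each array, as the difference from the Non + Veh mean (colour and printed value; lists in rows, with the number of rows tested, and arrays in columns). In the complement list Tg + Veh 1 to 3 stood at 1.93, 1.51 and 1.21, Tg + Dox 1 to 3 at 0.36, 0.39 and 0.90, and Tg + Veh 4 at 0.54.

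The array means of these lists put Tg + Veh 1 highest and Tg + Dox 3 closest to the Tg + Veh arrays. For the list of disease-associated microglia, the mean level over Non + Veh was 1.72, 1.20 and 0.98 on Tg + Veh 1 to 3 and 0.13, 0.20 and 0.68 on Tg + Dox 1 to 3. The Non arrays all lay between −0.06 and 0.04. The Tg + Dox arrays thus lay between the Tg + Veh and the Non arrays, and Tg + Veh 4 lay at 0.32, inside the Tg + Dox range. Reactive astrocyte genes had the same order, at 2.10, 2.01 and 1.42 and at 0.40, 0.44 and 1.03.

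Myelin genes were the largest group of called genes in any list. Of 23 listed for oligodendrocytes, 20 were measured. All 20 had a lower mean in Tg + Dox (56.8% of all rows), with a median of −0.47. In 16 the arrays were lower without overlap (11.7% of all rows). Sox10 was above 6.76 only on Tg + Veh arrays. Trf, Mog, Mag, Bcas1, Erbb3 and Cnp were called lower, as were 0.604% of all rows. Mog, a protein of the outer face of the myelin sheath, was at 9.79, 9.87 and 10.09 on the Tg + Veh arrays and at 9.44, 9.27 and 9.18 on the Tg + Dox arrays. It fell by 0.62 (adjusted p = 0.032), to a mean in the Non + Veh range of 9.24 to 9.41.

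Erbb3, a neuregulin receptor, was at 7.23, 7.17 and 7.18 on the Tg + Veh arrays and 6.70, 6.81 and 6.68 on the Tg + Dox arrays. It fell by 0.46 (standard error 0.04, adjusted p = 0.0148), to below the Non + Veh arrays at 6.82 to 6.89, and was called in 9 of the 11 fits. Trf, which encodes the iron carrier transferrin, fell by 0.92 (adjusted p = 0.032), Mag, an adhesion protein next to the axon, by 0.58 (adjusted p = 0.032) and Bcas1, a marker of newly formed oligodendrocytes, by 0.56 (adjusted p = 0.032). Cnp, an enzyme of myelin cytoplasm, fell by 0.33 (adjusted p = 0.032). Without Tg + Dox 3, when 110 of 12745 rows were called lower, 6 myelin genes were called, and with all 12 arrays none was.

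The myelin genes differed from the microglial ones in where the Tg + Dox arrays ended and in the Non mice. Their mean level over Non + Veh was 0.31, 0.46 and 0.41 on the Tg + Veh arrays and 0.05, −0.13 and −0.14 on the Tg + Dox arrays, so that 2 Tg + Dox arrays lay below all 3 Non + Veh arrays. In Non mice 17 of the 20 also had a lower mean on doxycycline, with a median of −0.20, against 43.4% of all rows. Non + Dox 1 and 2 were at −0.17 and −0.24. Precursor cells of the same lineage could be read by few genes, as 4 of 8 listed were measured, with a median of −0.02 and none called. Of these, Sox6 and Vcan hardly varied, and Sox6 was at 7.24 on all 3 Tg + Veh arrays. Gpr17 and Lhfpl3 differed by −0.08 and −0.02. Lower means in Non + Dox were not particular to myelin. They were also found for 11 of 13 genes of the cathepsin list (median −0.11) and 10 of 11 endothelial genes (median −0.25). For disease-associated microglia the count was 11 of 20, and for complement 2 of 9.

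Choroid plexus markers varied widely between arrays and split the Tg + Veh arrays. Of 12 listed, 4 were measured, Ttr, Kcnj13, Kl and Clic6, with a median difference of −2.0. Ttr, the thyroid hormone carrier of the choroid plexus, was at 9.93, 15.27 and 14.41 on Tg + Veh 1 to 3 and at 11.63, 9.92 and 8.12 on Tg + Dox 1 to 3. None of the 4 was called (adjusted p = 0.415 for Ttr), and the mean of the list ran from −1.03 to 2.25 on the Tg + Veh arrays and from −1.78 to −0.63 on the Tg + Dox arrays. Non arrays varied as widely, from −1.23 on Non + Dox 2 to 1.47 on Non + Dox 1. Tg + Veh 1, which had the highest microglial and complement levels, was the lowest Tg + Veh array in choroid plexus markers. The part of plexus tissue in other differences was not tested.

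Markers of other cells of the vessel wall did not differ in a common direction. The medians were 0.01 for 11 endothelial genes, 0.06 for 5 mural genes and 0.03 for 7 fibroblast genes, and none was called.

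**Figure D3:**
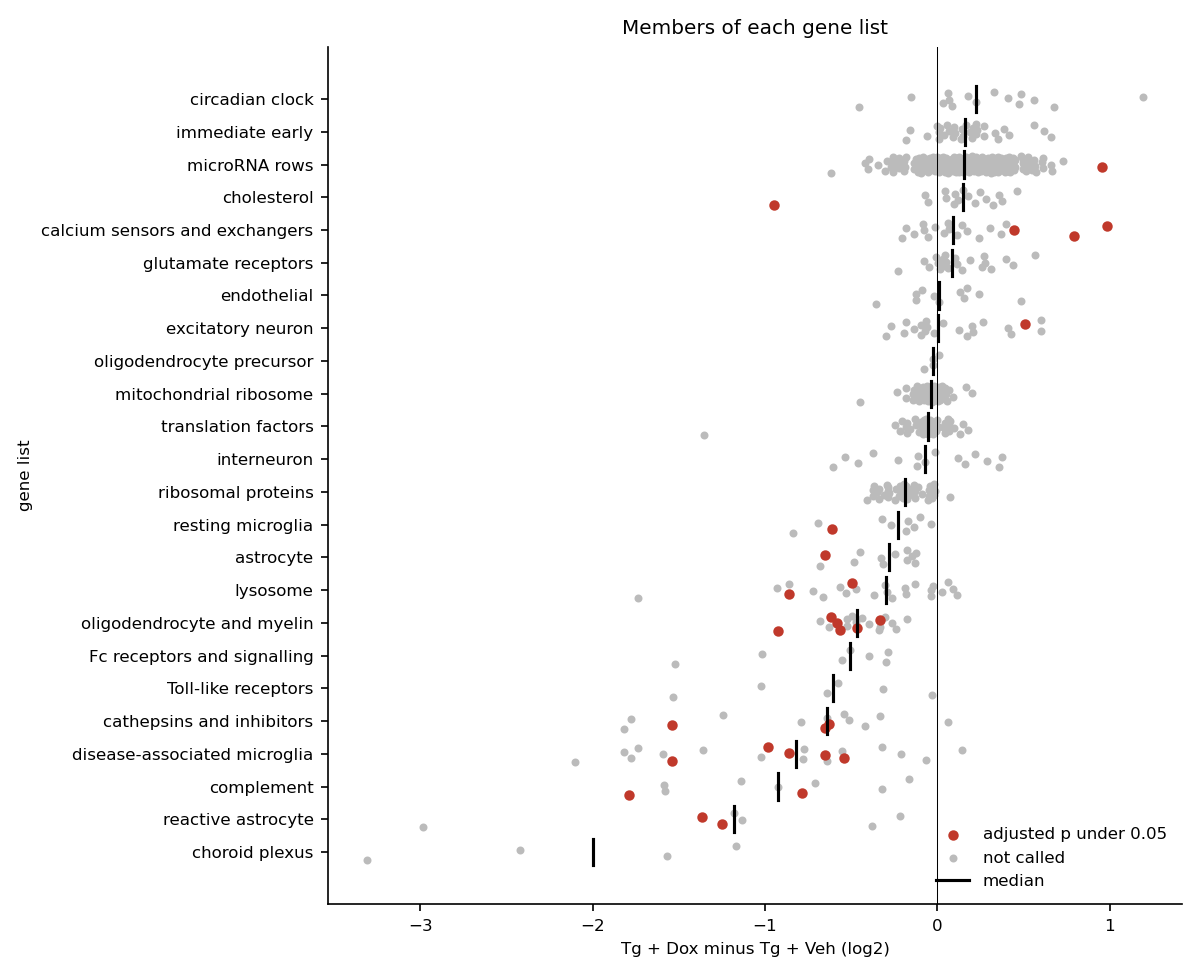
Log2 difference of Tg + Dox from Tg + Veh (x axis) for each measured member of the gene lists (y axis). Red points are members called by limma, grey points are members not called, and black bars are medians; the median was −1.18 for reactive astrocyte genes, −0.47 for myelin genes and 0.01 for excitatory neuron genes.

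Doxycycline feed raised 10 rows in Tg mice. Cpne6, a copine that binds membranes in a calcium-dependent way in dendritic spines, was at 10.46, 10.42 and 10.79 on the Tg + Veh arrays and at 11.59, 11.73 and 11.32 on the Tg + Dox arrays. It rose by 0.99 (standard error 0.18, adjusted p = 0.0484). Slc24a4, a sodium-calcium-potassium exchanger, rose by 0.79 (adjusted p = 0.0498), and Hpcal1, a calcium sensor of the hippocalcin family, by 0.44 (adjusted p = 0.032). These are the 3 called genes of 20 measured in a list of calcium sensors, copines and exchangers, as 0.0785% of all rows were called higher. The list did not move as a whole, with a median of 0.09, 13 higher means and 7 lower. The copines Cpne3 and Cpne9 differed by −0.20 and −0.18.

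Cacna1e encodes the pore of the R-type calcium channel. It was at 13.12, 13.03 and 13.20 on the Tg + Veh arrays and at 13.63, 13.64 and 13.47 on the Tg + Dox arrays, and it rose by 0.46 (standard error 0.07, adjusted p = 0.032). Otof, which encodes the calcium-binding vesicle protein otoferlin, rose by 0.51 (adjusted p = 0.0368). Pde9a, a phosphodiesterase of cyclic GMP, rose by 0.48 (adjusted p = 0.032), Wasf1, an activator of actin branching in neurons, by 0.37 (adjusted p = 0.0366), and Sobp by 0.47 (adjusted p = 0.0350). Sertm1, a membrane protein, rose by 0.73 (adjusted p = 0.0399). In 8 of the 10, all Tg + Veh arrays lay below all Non + Veh arrays (5.29% of all rows), although the rises were chosen in part through low Tg + Veh values. In 8 the mean of Tg + Dox lay above the highest Non + Veh array. Tg + Veh 4 was on the Tg + Veh side in 8 of the 10 and on the Tg + Dox side in none.

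All 10 also had a higher mean in Non + Dox than in Non + Veh, although limma called 0 rows between the Non groups (1354 rows, 10.6%, had an unadjusted p under 0.05, and the unmoderated two-way model also called 0). Cacna1e was at 13.18, 13.33 and 13.26 on the Non + Veh arrays and at 13.65 and 13.68 on the Non + Dox arrays, a difference of 0.41. Hpcal1 was at 8.25, 8.25 and 8.26 on Non + Veh and at 8.73 and 8.59 on Non + Dox, likewise 0.41. The median difference of the 10 genes was 0.49 in Tg mice and 0.41 in Non mice, whereas 56.4% of all rows had a higher mean in Non + Dox. The difference between the genotypes was called in none of the 10. Its test holds the Tg rise by which they were chosen, so their share under an unadjusted 0.05 is not read. The difference itself was −0.01 for Wasf1 and 0.05 for Cacna1e, but 0.49 for Slc24a4 and 0.54 for Mir667. Without Non + Veh 3 and Non + Dox 2, all 10 were still higher in Non + Dox, with a median of 0.29.

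The 77 falls had a median difference of −0.54 in Tg mice and −0.05 in Non mice. Of the 77, 49 were also lower in Non + Dox, against 43.4% of all rows. Without Non + Veh 3 and Non + Dox 2, only Non + Dox 1 is left in its group. In this setting 39 of the 77 were lower in Non + Dox, against 39.4% of all rows, and the median was 0.00. The test of the difference between genotypes holds the Tg difference by which these rows were chosen, so their share under an unadjusted 0.05 is not read here. Over all rows limma called 0 for it, with 1047 rows (8.21%) under an unadjusted 0.05 and a smallest adjusted p of 0.0899. The unmoderated two-way model also called 0, with 886 rows under 0.05. In 73 of the 77, all Tg + Veh arrays lay above all Non + Veh arrays, as in 13.4% of all rows, but the falls were chosen in part through high Tg + Veh values. The mean of Tg + Dox then lay within the Non + Veh range in 20, above it in 29 and below it in 28. Tg + Veh 4 was on the Tg + Dox side in 42 of the 77 and on the Tg + Veh side in 10.

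**Figure D4:**
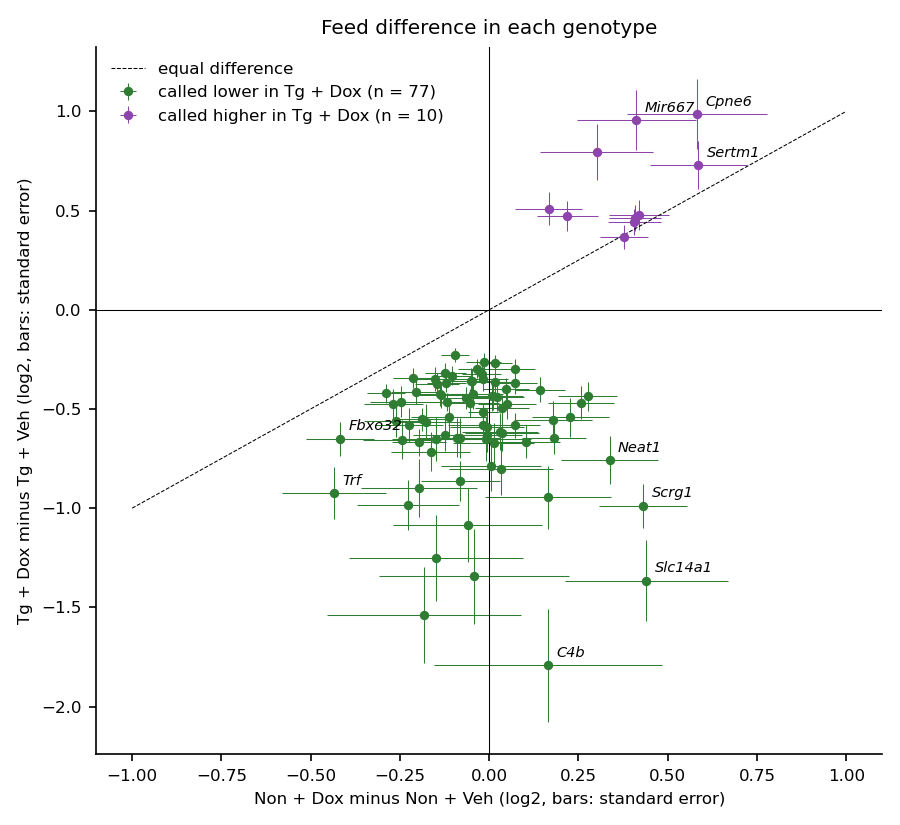
Log2 difference between feeds in Non mice (x axis) and in Tg mice (y axis) for the 87 called rows, with standard errors as bars and a dashed line where both are equal. The 10 rises (purple) were all higher in Non + Dox too, whereas the 77 falls (green) had a median of −0.05 in Non mice.

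Scrg1 and Selenop had the smallest adjusted p for the difference between genotypes, 0.0899 for both. Scrg1, a secreted protein first found in scrapie-infected brain, was at 11.43, 11.10 and 11.22 on the Tg + Veh arrays and at 10.09, 10.43 and 10.27 on the Tg + Dox arrays, and it fell by 0.99 (standard error 0.11, adjusted p = 0.0184). In Non mice it differed the other way, from 9.52, 9.79 and 9.70 on Non + Veh to 10.12 and 10.08 on Non + Dox, a difference of 0.43. In the opposite direction, the smallest adjusted p for the difference between genotypes were those of Cobl (0.362) and Egr1 (0.384). Egr1, an activity-induced zinc finger factor, was at 9.24, 9.16 and 9.0 on the Tg + Veh arrays and at 9.80, 9.99 and 9.58 on the Tg + Dox arrays. Its difference of 0.66 in Tg mice was not called (adjusted p = 0.0526), and in Non mice it was −0.14. It was called higher with each array centred on its median and without Tg + Dox 3, but not with all 12 arrays.

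Among the 77 falls 21 were in a list, and several of the others encode proteins of known role. Lap3, a leucine aminopeptidase, was at 9.48, 9.41 and 9.54 on the Tg + Veh arrays and at 8.88, 8.68 and 8.86 on the Tg + Dox arrays, and it fell by 0.67 (standard error 0.07, adjusted p = 0.0148). It was called in 10 of the 11 fits. Neat1, the long noncoding RNA that builds paraspeckles, fell by 0.76 (adjusted p = 0.0357), and Elovl7, which lengthens fatty acids, by 0.90 (adjusted p = 0.0357). H1f2, a linker histone, fell by 0.80 (adjusted p = 0.0362) and Cnn3, an actin-binding calponin, by 0.67 (adjusted p = 0.032). Gm3150, a predicted gene, fell by 0.71 (adjusted p = 0.032).

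The promoters of the falling genes were read for short sequence motifs, because microglial genes often carry sites of the factor PU.1 and lysosomal genes those of TFEB. Promoters from RefSeq (GRCm38.p6, 250 bases before to 50 after the start) were given for 52 of the 77 genes. The core GAGGAAGT of the PU.1 motif was found on either strand in 3 of the 52 (5.77%), against 3.69% of all 27025 genes with a promoter. The core TCACGTGA of the TFEB motif was found in 0 of the 52, against 1.12%. Of the 10 called genes in the microglial, complement and lysosomal lists 8 had a promoter, and neither motif was in any of these windows. The Selenop promoter held the first motif, and the 250 bases before the first of 2 annotated starts are shown because it was the gene called in every fit. They lie at chr15:3270517-3270766 on the + strand of GRCm38.p6, and the capitals mark the motif, read on the other strand, 181 bases before the start.
Selenop promoter: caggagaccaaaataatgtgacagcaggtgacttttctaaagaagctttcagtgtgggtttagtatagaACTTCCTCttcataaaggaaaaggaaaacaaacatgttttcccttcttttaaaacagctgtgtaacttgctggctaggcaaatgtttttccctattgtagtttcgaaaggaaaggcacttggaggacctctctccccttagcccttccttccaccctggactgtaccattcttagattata

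Neuronal lists held few calls. Otof was the 1 called gene among 22 rows of excitatory neuron markers, whose median was 0.01, and none of 15 interneuron genes was called (median −0.07). Slc17a7, the vesicular glutamate transporter of excitatory neurons, differed by 0.21 and Camk2a, whose promoter drives the tTA transgene, by 0.17 (adjusted p = 0.259 and 0.300). Npy and Crh, peptides of interneurons, differed by −0.61 and −0.54 (adjusted p = 0.196 and 0.0693).

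Of 32 immediate early rows 28 had higher means, with a median of 0.16 and none called. Nr4a3 and Nr4a2, nuclear receptors induced by activity, differed by 0.62 and 0.56 (adjusted p = 0.196 and 0.245). The Tg + Dox arrays stayed at −0.26, −0.10 and −0.46 relative to Non + Veh and the Tg + Veh arrays at −0.34, −0.45 and −0.57, so the groups of array means overlapped. Glutamate receptor genes had a median of 0.08 over 22, GABA-A receptor genes 0.13 over 10 rows, synapse genes 0.11 over 30 and potassium channels −0.01 over 38, with no gene called. Cacng3, a trafficking subunit of AMPA receptors, differed by 0.57 (adjusted p = 0.114).

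Transcripts of the translation machinery were read because the study asked whether tau changes what ribosomes make. None of 45 rows of cytosolic ribosomal proteins was called, but 44 of the 45 had a lower mean in Tg + Dox, against 56.8% of all rows, with a median of −0.19 in Tg mice and 0.06 in Non mice. The mean of the list was 0.13, 0.08 and 0.24 on the Tg + Veh arrays and −0.02, 0.04 and −0.12 on the Tg + Dox arrays. The Tg groups did not overlap in this mean, and the Non + Veh arrays lay at −0.08, −0.03 and 0.11. With each array centred on its median 40 of the 45 were lower, and the median was −0.16. Fau differed most, by −0.41 (adjusted p = 0.167).

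Of 163 rows named for pseudogenes of ribosomal proteins, a group formed after its values were seen, 4 were called lower (2.45%, against 0.604% of all rows). These were Rps12-ps19, Rps12-ps7, Rpl10-ps1 and Rpl10-ps6, which fell by 0.65, 0.44, 0.40 and 0.37 (adjusted p = 0.0287, 0.0440, 0.032 and 0.032). Their sequences are close to those of the parent genes, so the source of the signal is uncertain. On Tg + Veh 4 Rps12-ps19 was at 12.63, above the other Tg + Veh arrays at 12.30 to 12.45, whereas the Tg + Dox arrays were at 11.54 to 11.86. Translation factors had a median of −0.05 over 50 rows, mitochondrial ribosomal proteins −0.03 over 65 and proteasome genes −0.02 over 33, with none called. Among 81 rows of oxidative phosphorylation, Atp5h, a subunit of ATP synthase, fell by 0.34 (adjusted p = 0.032), and the median was −0.06.

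Clock genes, which cycle over the day, had a median of 0.23 in Tg mice and 0.08 in Non mice, and 13 of 15 had higher means in Tg + Dox. Dbp, an output factor of the clock, was at 9.37, 9.0 and 8.78 on the Tg + Veh arrays and at 10.62, 10.76 and 9.35 on the Tg + Dox arrays, a difference of 1.20 (adjusted p = 0.154). Arntl, which drives the opposite phase, was at 10.25, 10.37 and 10.48 on Tg + Veh and at 9.45, 9.79 and 10.50 on Tg + Dox, a difference of −0.45 (adjusted p = 0.337). Tg + Dox 3 lay with the Tg + Veh arrays in both genes, and the hour of tissue collection is not given in the sources used here. None of the 15 was called with 11 arrays or with all 12. Without Tg + Dox 3, when 48 of 12745 rows were called higher and 110 lower, 3 of the 15 were called higher and 1 lower.

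Genes of the cholesterol pathway had a median of 0.15 over 17, and Abca1, which exports cholesterol and fell, was the 1 called. Sqle and Nsdhl, enzymes of cholesterol synthesis, differed by 0.47 and 0.37 (adjusted p = 0.151 and 0.0617). Heat shock genes, stress response genes and genes of tau and other microtubule proteins had medians of 0.00, −0.08 and 0.00, with none called. The 11 heat shock rows held 8 symbols and ran from −0.16 to 0.12. Their median is that of near-identical rows of Hspa8.

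Of 254 rows named for microRNA hairpins, 190 had a higher mean in Tg + Dox (43.1% of all rows did), with a median of 0.16 in Tg mice and 0.11 in Non mice. These rows read the RNA of the locus, not the mature microRNA. Mir667 was the 1 called. It was at 10.65, 10.52 and 10.26 on the Tg + Veh arrays and at 11.48, 11.16 and 11.66 on the Tg + Dox arrays, and it rose by 0.96 (standard error 0.15, adjusted p = 0.032). Non + Veh was at 10.66 to 10.80 and Non + Dox at 10.94 and 11.31, a difference of 0.41.

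Mir667 lies in a large cluster of microRNA genes on chromosome 12 that is transcribed from the maternal allele together with Meg3 and Rian. After the value of Mir667 was seen, the other rows within 500000 bases of it were read. All 30 tested rows of this region, Mir667 included, had higher means in Tg + Dox, from 0.05 to 0.96 with a median of 0.33. The arrays did not overlap in 14 of them, whereas 5.27% of all rows were higher without overlap. In Non mice 29 of the 30 were also higher on doxycycline, with a median of 0.27. This count holds all Non arrays, including those with Esyt2 at the Tg level. How much of it rests on a single Non + Dox array was not tested. Among the other 224 microRNA rows 160 were higher, with a median of 0.13. Hairpins of 1 transcript share their source and are not independent.

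Mature sequences of the 5 hairpins with the largest differences are shown, since they would be products of this locus. For Mir539 and Mir487b only the 5p sequence is shown. They come from RefSeq (GRCm38.p6), run 5′ to 3′, and have the seed (bases 2 to 8) in capitals. All 7 seeds shown differ. Beside Mir667, the differences were 0.66 for Mir539, 0.62 for Mir487b, 0.57 for Mir493 and 0.53 for Mir453 (adjusted p = 0.128, 0.191, 0.200 and 0.0788).
miR-667-5p: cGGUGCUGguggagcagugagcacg
miR-667-3p: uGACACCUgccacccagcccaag
miR-539-5p: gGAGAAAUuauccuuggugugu
miR-487b-5p: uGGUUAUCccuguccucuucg
miR-493-5p: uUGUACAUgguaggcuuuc
miR-493-3p: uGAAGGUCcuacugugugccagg
miR-453: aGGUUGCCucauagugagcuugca

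**Figure D5:**
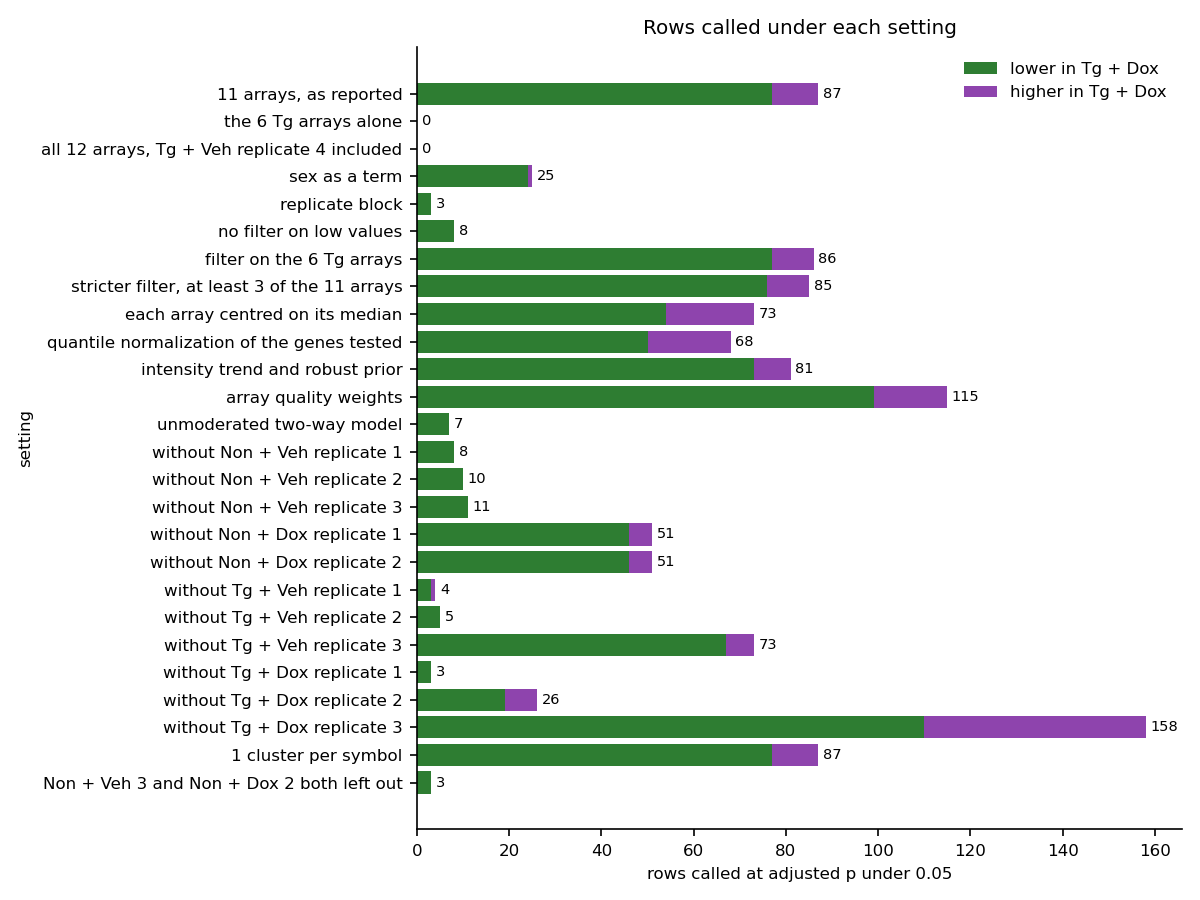
Number of rows called between Tg + Dox and Tg + Veh at an adjusted p under 0.05 (x axis) under each setting (y axis), split by direction. The count was 87 with the 11 arrays, 0 with the 6 Tg arrays alone or with all 12 arrays, and 158 without Tg + Dox 3.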

How the data were processed

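RNA of mouse cortex was hybridized to Clariom D arrays, and the authors deposited log2 RMA signals per transcript cluster. The RMA software and its version are not given in the sources used here. Of 65770 clusters, 30638 have 1 symbol in the platform's annotation, and the other 35132 have several or none and were left out. The 12745 clusters above 6.76, the signal minimum of the methods, on at least 1 of 11 arrays were tested (12564 symbols, 164 of them on several clusters, each kept as a row). Tg + Veh 4 failed the authors' quality control and served only as a check.

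One model with 4 group means was fitted with limma 3.58.1 (R 4.3.3) and tested on simulated data. Contrasts were Tg + Dox minus Tg + Veh, Non + Dox minus Non + Veh and their difference, with Benjamini-Hochberg adjustment over all rows. Named genes are all rises, the 20 largest falls, called members of the lists, up to 4 others per list, Gfap, Mapt and 2 genes per direction of the difference between genotypes. Esyt2, Fgf14, Ptprn2, Wdr60, Abhd3, Gatm, the pseudogene rows and the microRNAs near Mir667 fall outside this rule and were chosen after their values were seen. Members and lists were chosen with earlier results of these data known. Arrays have no read depth, and their number limits the precision. Alternatives changed arrays, filter, scaling, sex term, replicate block and test.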

Additional observations from a re-analysis of the deposited data

Results flagged for a closer look

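Among the 4 Tg + Veh arrays, 125 values were tested for 1 array far from the others (the gap to the nearest array divided by the range), and 11 were found (8.8%). Chance flags about 1 in 20 groups, and the tested values are not independent. Tg + Veh 4, which failed quality control, was the far array in 9 of the 11. Genes with this gap were H1f2 (ratio 0.905), Slc39a12 (0.905), Efcab14 (0.869), Ctnna1 (0.866) and Htra1 (0.844), in all of which Tg + Veh 4 was low, and Gm4986 (0.848), in which it was high. H1f2, for example, was at 7.09, 7.13 and 7.07 on Tg + Veh 1 to 3 and at 6.57 on Tg + Veh 4. The mean levels of 3 lists were likewise low on Tg + Veh 4, those of interneuron genes (0.928), of calcium sensors and exchangers (0.927) and of glutamate receptors (0.835). The mean of potassium channel genes was farthest on Tg + Veh 1 (0.876), where it was high, and that of oxidative phosphorylation genes on Tg + Veh 3 (0.851), where it was high.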

How the results depend on the processing

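The 87 calls between Tg + Dox and Tg + Veh became 0 with the 6 Tg arrays alone (1669 rows with an unadjusted p under 0.05), 0 with all 12 arrays (2295 such rows), 25 with sex as a term, 8 with no filter on low values and 7 with the unmoderated two-way model. Chosen after seeing the data, leaving out both Non + Veh 3 and Non + Dox 2 gave 3 calls for this comparison, 1 for the difference between genotypes and 1 for feed in Non mice. Leaving out 1 array in turn gave 3 (without Tg + Dox 1) to 158 (without Tg + Dox 3) calls, 0 to 12 for the difference between genotypes (12 without Non + Dox 2) and 0 to 3 for feed in Non mice (2 without Non + Veh 3, 3 without Non + Dox 2). The main count for both of the latter was 0, with 1047 and 1354 rows at an unadjusted p under 0.05. Counts were 68 to 115 with centring, quantile normalization, a trend and robust prior or array weights, and 85 to 87 with other filters or 1 row per symbol. The split of 10 higher and 77 lower became 19 and 54 with centred arrays and 18 and 50 with quantile normalization, and 48 and 110 without Tg + Dox 3. No called row changed direction under any of these settings. Of the uncalled genes named, Slc1a3 moved from −0.13 to 0.022 with all 12 arrays, and Mrc1 from −0.00 to between −0.12 (without Tg + Veh 3) and 0.14 (without Tg + Veh 1). The labels do not tie array numbers to a shared source. Same-numbered Tg + Veh and Tg + Dox arrays had correlations of −0.222, −0.261 and −0.143 of their deviations, and the other pairs of groups that share a feed or genotype ran from −0.115 to 0.417 (Non + Veh 3 with Tg + Veh 3), so the numbers were not taken as pairs. With the replicate number as a block 3 rows were called (Lap3, S100b and Selenop). The cause of these changes was not tested.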
